A study of Mus musculus with 6 samples.

Results

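The 38 genes described here are 23 parts of the Hippo pathway and 15 genes known as targets of its effectors YAP and TAZ, out of 49315 mouse genes with read counts. They were taken by gene symbol (GENCODE M21), each symbol matched 1 row, and all 38 had enough reads to be tested. The 3A group was 3 libraries of the line MK-546-ha3A, keratinocytes without mouse α3 integrin to which human α3 had been restored. The Control group was 3 libraries of MK-546, the parental line without α3. Both lines are immortalized mouse skin keratinocytes, were untreated, and grew on collagen-coated dishes at 33 °C with 8% CO2 to a stated 50 to 80% confluence. The sources used here give neither the confluence of each dish nor the promoter that drives human α3. Each group is 1 cell line, so α3 and the descent of the line cannot be told apart. Nothing in the labels says that the libraries came from separate cultures, and the p-values may then measure technical spread only.

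The Hippo pathway is a kinase cascade in which MST kinases (genes Stk3 and Stk4), with the adaptor SAV1, activate LATS kinases, which with MOB1 phosphorylate the coactivators YAP and TAZ and keep them out of the nucleus. Free YAP and TAZ enter the nucleus, bind TEAD factors and switch on target genes such as Ccn1, Ccn2 and Ankrd1. The pathway responds to cell contact, cytoskeletal tension and adhesion to matrix, and in skin YAP promotes growth of basal keratinocytes. Much of this control acts on phosphorylation and location of the proteins, which mRNA counts do not measure.

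The comparison of 3A with Control asked which transcripts differ when keratinocytes have integrin α3β1, a receptor for laminin. Itga3 itself had 57.5 to 80.4 CPM (read counts scaled to the size of each library) in 3A, against 31.9 to 45.1 CPM in Control. In 3A, reads of the human transgene may be counted on the mouse gene. Control, the parental line, had reads on Itga3 as well, so the values check neither deletion nor transgene. The origin of the Control reads was not tested. Total counts ranged from 25634204 to 36245240 per library. Control 1 stood apart from Control 2 and 3 (Pearson r across genes 0.957 and 0.953, against 0.988 between Control 2 and 3), and the share of counts on mitochondrially encoded genes was 1.24 to 1.59% in 3A, 1.17% in Control 1 and 4.19 to 4.73% in Control 2 and 3. Genes are not independent replicates, and the part of the mitochondrial share in the results below was not tested. Of 10 keratinocyte markers, all had counts in every library, with summed levels of 7520 to 9420 CPM in 3A and 10200 to 11700 CPM in Control. Trp63 and Perp, 2 of the 10, were called lower in 3A (edgeR's adjusted p = 0.0491 and 0.0247), as were 7.39% of all tested genes. With 1 library left out in turn, both were called only without Control 1 (edgeR's adjusted p up to 0.161 and 0.133). Fibroblast markers (8 genes) summed to 2.05 to 3.40 CPM in 3A and 2.38 to 3.36 CPM in Control, with Lum at 0 in every library. The 5 endothelial markers summed to at most 1.00 CPM and the 5 melanocyte markers to at most 1.71 CPM in any library, with Tyr and Dct at 0. The melanocyte marker Pmel was called lower in 3A, at 0.602 to 0.752 CPM, against 1.27 to 1.57 CPM in Control (edgeR's adjusted p = 0.0436). The 5 immune markers summed to 11.2 to 14.6 CPM in 3A and 14.0 to 23 CPM in Control, mostly from Cd68.

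Promoter sequence was read for the members because TEAD factors bind the letters GGAATG. Windows from 250 bases before to 50 bases after the transcription start (RefSeq, GRCm38.p6) were on hand for 31 of the 38 genes, 20 pathway parts and 11 targets. GGAATG or its reverse complement CATTCC occurred in a window of 15 of these 31 genes (48.4%), compared with 1445 of 9908 tested genes with a window (14.6%) and 14.7% of all 32851 windows. The 15 were 11 pathway parts, among them Yap1, Wwtr1, Tead3, Lats2, Ptpn14, Ajuba and Amotl2, and 4 targets, Ccn1, Ankrd1, Axl and Crim1. By class these were 55% of the 20 pathway parts and 36.4% of the 11 targets with a window. A match is a description of letters and not a measured binding site. The windows of Amot, the only called pathway part, and of the called targets Lhfpl2, Rbms3 and Gadd45b had no match. Ccn2 had no window. The first 3 windows below belong to targets with a match, of which only Crim1 was called in the comparison of the lines. The matching letters are in capitals. They lie at base -103 for Ccn1, at -210 and -123 for Ankrd1 and at -79 for Crim1, counted from the start site to the first base of the match.
Ccn1 (chr3:145649936-145650235, minus strand): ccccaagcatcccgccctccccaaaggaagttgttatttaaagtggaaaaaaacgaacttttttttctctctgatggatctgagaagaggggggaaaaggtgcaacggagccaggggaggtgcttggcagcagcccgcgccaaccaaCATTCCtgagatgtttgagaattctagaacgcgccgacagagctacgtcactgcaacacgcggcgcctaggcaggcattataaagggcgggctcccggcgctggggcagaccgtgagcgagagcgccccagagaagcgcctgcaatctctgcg
Ankrd1 (chr19:36119795-36120094, minus strand): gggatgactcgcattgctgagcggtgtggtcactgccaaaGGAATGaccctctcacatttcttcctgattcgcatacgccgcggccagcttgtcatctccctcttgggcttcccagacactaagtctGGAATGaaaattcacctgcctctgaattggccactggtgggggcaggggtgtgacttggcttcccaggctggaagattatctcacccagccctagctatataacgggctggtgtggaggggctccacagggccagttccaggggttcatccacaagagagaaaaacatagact
Crim1 (chr17:78199998-78200297, plus strand): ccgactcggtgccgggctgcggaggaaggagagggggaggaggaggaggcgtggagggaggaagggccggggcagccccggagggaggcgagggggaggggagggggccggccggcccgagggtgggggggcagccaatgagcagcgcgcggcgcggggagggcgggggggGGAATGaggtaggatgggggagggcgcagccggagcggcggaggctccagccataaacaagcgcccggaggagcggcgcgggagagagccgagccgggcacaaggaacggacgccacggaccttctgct
F3, the called target with the smallest adjusted p, had no GGAATG or CATTCC in its window. The window is shown with the letters TGANTCA (N is any base) in capitals. This is a loose form of the element bound by AP-1 factors, which often occupy DNA together with TEAD. The pattern is its own reverse complement and was found at bases -146 (as TGAATCA) and -135 (as TGAGTCA). F3 was the only member with the AP-1 letters (1 of 31, 3.23%, against 6.69% of tested genes with a window).
F3 (chr3:121723287-121723586, plus strand): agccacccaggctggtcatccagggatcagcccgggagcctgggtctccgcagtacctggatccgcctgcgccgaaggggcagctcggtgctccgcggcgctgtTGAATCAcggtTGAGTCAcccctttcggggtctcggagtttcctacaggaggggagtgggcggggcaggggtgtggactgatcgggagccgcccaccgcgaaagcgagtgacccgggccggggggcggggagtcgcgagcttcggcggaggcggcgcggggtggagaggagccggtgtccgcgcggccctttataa

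Among the pathway parts, 1 of 23 rose in 3A and 0 fell by edgeR's quasi-likelihood test at an adjusted p under 0.05. Over all 13704 tested genes this threshold called 14.9% in either direction, 7.52% higher and 7.39% lower in 3A. The groups did not overlap for 5 pathway parts higher and 3 lower in 3A (34.8%, against 36.1% of all tested genes). At an unadjusted p under 0.05, 5 pathway parts passed (21.7%, against 34% of all tested genes). DESeq2 called 2 pathway parts higher and 1 lower. Over all genes it called 1525 higher and 1765 lower, more than edgeR's 1031 and 1013. The median log2 fold change was 0.14 over the pathway parts and -0.02 over all tested genes, and the median size without regard to sign was 0.25 and 0.43. Since the libraries are bulk RNA, fewer cells of a type and less RNA per cell cannot be told apart.

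The effector transcripts Yap1 and Wwtr1 (the gene of TAZ) did not pass the test. Yap1 (chromosome 9, 7931999 to 8004596, minus strand) had 234, 240 and 231 CPM in 3A 1, 2 and 3, against 283, 245 and 238 CPM in Control 1, 2 and 3. Its groups overlapped, with Control 1 the highest library, and its log2 fold change was -0.12 (95% confidence interval -0.45 to 0.21, edgeR's adjusted p = 0.557). Wwtr1 (chromosome 3, 57455649 to 57575910, minus strand) had 108, 96.1 and 106 CPM in 3A, against 98, 92.3 and 89.0 CPM in Control. These groups overlapped as well, and the log2 fold change was 0.15 (95% confidence interval -0.16 to 0.47, edgeR's adjusted p = 0.433). Both intervals leave out a 2-fold change of the mRNA in either direction. Levels of different genes were compared per exon length, as TPM (counts per exon length, scaled to a fixed sum per library). On that scale Yap1 made up 54.0 ± 2.07% of the summed Yap1 and Wwtr1 level in 3A and 58.6 ± 1.15% in Control (SD, n = 3 each), and the shares of the 3 libraries of 3A all lay below those of Control.

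TEAD transcripts, which encode the DNA-binding partners of YAP and TAZ, differed in their makeup. Tead1 (chromosome 7, 112679318 to 112906807, plus strand) supplied 31.0, 32.9 and 34.1% of the summed TEAD level (TPM) in 3A 1, 2 and 3, against 24.1, 21 and 20.2% in Control 1, 2 and 3. Tead4 (chromosome 6, 128224288 to 128300823, minus strand) supplied 42.3, 45.7 and 46.5% in 3A, against 53.1, 51.8 and 56.3% in Control. Neither set of shares overlapped between the lines, and Tead4 was the most abundant TEAD transcript in every library. Tead3 and Tead2 made up 16.3 ± 3.48% and 6.17 ± 0.574% in 3A, and 19.0 ± 2.13% and 5.5 ± 0.680% in Control (SD, n = 3 each), with overlap. The shares are given as a description, without a test.

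**Figure D1:**
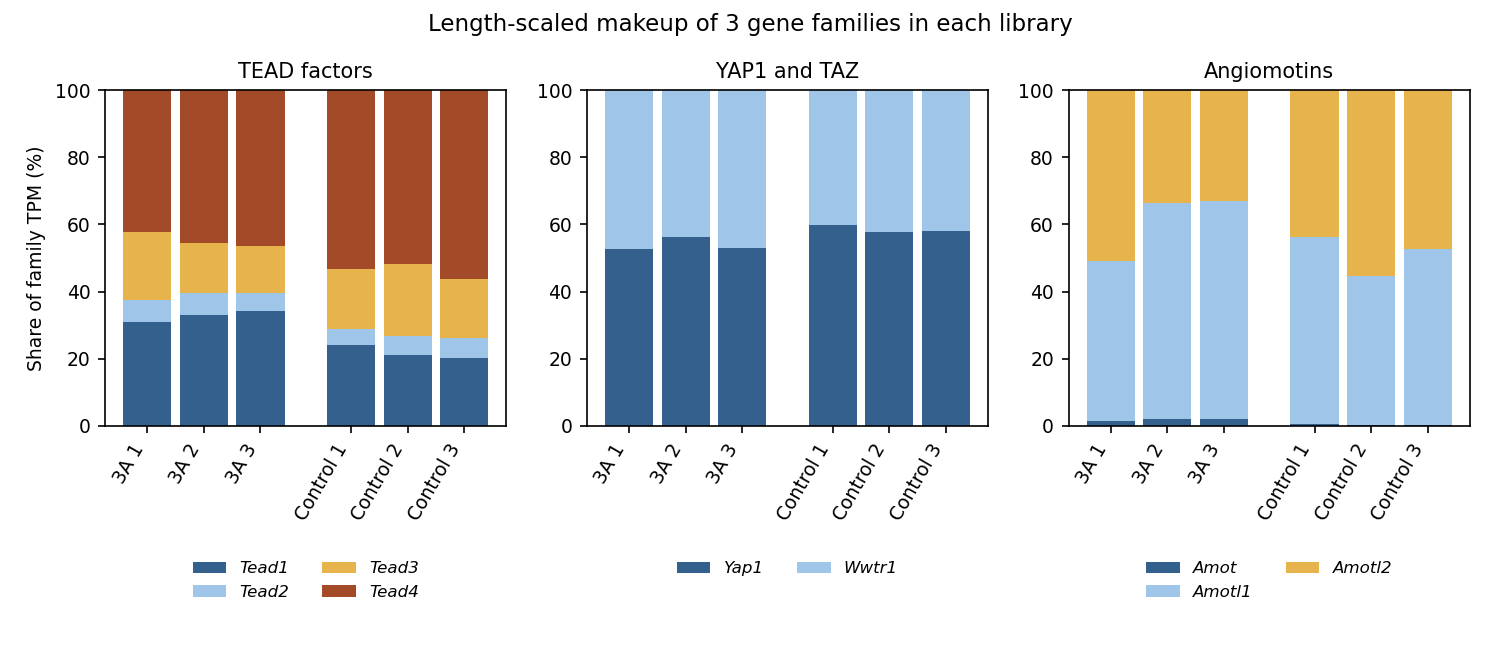
Share of each gene in the summed length-scaled level (TPM, percent, y axis) of its family in each of 6 libraries (x axis), for TEAD factors, YAP1 with TAZ (gene Wwtr1) and angiomotins. The Tead1 segment reached 31.0 to 34.1% in 3A and 20.2 to 24.1% in Control, while Amot was at most 2.07% of its family in any library.

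By level of the single genes, no TEAD factor passed the test. Tead4 had 26.7, 33.3 and 30.4 CPM in 3A, against 52.8, 38.8 and 45.9 CPM in Control, a log2 fold change of -0.60 (SE 0.17, edgeR's adjusted p = 0.0580). Tead3 had 23.9, 20.2 and 16.9 CPM in 3A, against 33.5, 29.9 and 26.6 CPM in Control (log2 fold change -0.56, SE 0.18, edgeR's adjusted p = 0.0800). Both genes were below every Control library in every library of 3A, and Tead4 was called lower by DESeq2 (adjusted p = 0.0293) and without Control 1 (log2 fold change -0.48, edgeR's adjusted p = 0.0310). Tead1 had 73.6, 90.7 and 83.8 CPM in 3A, against 90.2, 59.3 and 62.1 CPM in Control, so that Control 1 lay within the range of 3A. Its log2 fold change was 0.23 (edgeR's adjusted p = 0.440) with 6 libraries and 0.46 (edgeR's adjusted p = 0.0276) without Control 1. Tead2 had 4.79 to 6.40 CPM in 3A and 5.67 to 6.58 CPM in Control.

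Vgll3 and Vgll4 encode vestigial-like cofactors that bind TEAD in place of YAP and TAZ, and VGLL4 is known as a repressor of TEAD output. Vgll4 had 51.6, 61.1 and 54.5 CPM in 3A, against 51.3, 31.0 and 28.2 CPM in Control. Its groups did not overlap, but Control 1 was just below the lowest 3A library, and the log2 fold change of 0.60 did not pass (SE 0.25, edgeR's adjusted p = 0.137). Vgll3 had 14.9, 21.7 and 21.5 CPM in 3A, against 44.5, 20.5 and 19.4 CPM in Control. Control 1 alone stood out for Vgll3, and the log2 fold change was -0.54 with all libraries and -0.03 without Control 1 (edgeR's adjusted p = 0.300 and 0.890). Without Control 1, Vgll4 was higher in 3A (log2 fold change 0.92, edgeR's adjusted p = 0.00208).

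No core kinase transcript passed the test. Stk3, which encodes MST2, had 46.4, 45.2 and 48.9 CPM in 3A, against 41.3, 37.3 and 39.2 CPM in Control, without overlap (log2 fold change 0.25, 95% confidence interval -0.06 to 0.57, edgeR's adjusted p = 0.215). Stk4, which encodes MST1, ranged from 52.1 to 66.2 CPM in 3A and from 45.6 to 69.1 CPM in Control. Lats1 (chromosome 10) had 60, 65.7 and 66.3 CPM in 3A, against 95.6, 72.0 and 71.5 CPM in Control. All 3 libraries of 3A were below Control for Lats1, and its log2 fold change of -0.32 (edgeR's adjusted p = 0.217) was close to the median of the 615 tested genes of chromosome 10, -0.27. The called targets Ccn2 (log2 fold change 0.88) and Gadd45b (-1.52) lie on this chromosome too. Lats2, which is also a YAP target, had 17 to 21.6 CPM in 3A and 16.7 to 20.9 CPM in Control, the smallest difference of all 38 genes (log2 fold change 0.02, 95% confidence interval -0.38 to 0.41). Of the 6971 exon bases of Lats2, 2955 are shared with the protein-coding gene Gm49361 on the same strand, so the Lats2 counts and the LATS shares are uncertain. Per exon length, Lats1 made up 76.4 ± 3.31% of the LATS level in 3A and 80.2 ± 1.32% in Control, and Stk4 57.4 ± 3.27% of the MST level in 3A and 58.2 ± 4.73% in Control (SD, n = 3 each).

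Of the kinase adaptors, Mob1b (chromosome 5, 88720855 to 88764220, plus strand) had 64.6, 77.5 and 87.2 CPM in 3A, against 59.8, 34.9 and 32.9 CPM in Control. The groups did not overlap, with Control 1 between the other Controls and 3A, and the log2 fold change of 0.85 did not pass (SE 0.26, edgeR's adjusted p = 0.0713). It was called higher by DESeq2 (adjusted p = 0.0242) and without Control 1 (log2 fold change 1.18, edgeR's adjusted p = 0.00139). Its paralog Mob1a, which encodes a nearly identical LATS activator, had 225, 307 and 335 CPM in 3A, against 327, 221 and 217 CPM in Control, with overlap. Mob1b accounted for 8.39, 7.46 and 7.66% of the summed MOB1 level (TPM) in 3A, against 5.5, 4.78 and 4.62% in Control, so Mob1a was the main transcript throughout. Reads of these close paralogs may be divided in unknown ways. Sav1, the scaffold that joins MST and LATS, had 55.8 to 68.3 CPM in 3A and 67.0 to 77.7 CPM in Control (log2 fold change -0.20, edgeR's adjusted p = 0.353). Of the 5265 exon bases of Sav1, 1336 are shared with Atl1 on the other strand, and the sources used here do not say whether strand was used in counting.

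No upstream scaffold gene passed, and some varied widely within Control. Frmd6, which encodes the FERM protein willin, had 44.9, 71.8 and 79.4 CPM in 3A, against 82.9, 26.8 and 20.6 CPM in Control. Ptpn14, which encodes a phosphatase that binds YAP and is itself a YAP target, had 78.7, 125 and 112 CPM in 3A, against 126, 55.0 and 57.0 CPM in Control. For both genes Control 1 was the highest of the 6 libraries and Control 2 and 3 the lowest, the same 2 libraries that had the high mitochondrial share. Neither passed with 6 libraries (log2 fold changes 0.59 and 0.40, edgeR's adjusted p = 0.445 and 0.441), and both did without Control 1 (1.47 and 0.92, edgeR's adjusted p = 0.00327 and 0.00739). Nf2, which encodes merlin, a membrane-linked activator of LATS, had 154, 164 and 158 CPM in 3A, against 152, 107 and 125 CPM in Control. The groups did not overlap, and the log2 fold change of 0.31 (edgeR's adjusted p = 0.223) was 0.47 without Control 1 (edgeR's adjusted p = 0.0195). Wwc1, which encodes KIBRA, a partner of merlin, had 132 to 187 CPM in 3A and 118 to 164 CPM in Control. Ajuba, which encodes a LIM protein that restrains LATS, had 111 to 127 CPM in 3A and 95 to 170 CPM in Control. Both had overlapping groups.

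Amot was the pathway part that rose. Angiomotins bind YAP and TAZ and can hold them at junctions and actin. Amot (chromosome X, 145446425 to 145505181, minus strand) had 4.73, 6.66 and 7.05 CPM in 3A, against 1.71, 1.13 and 0.764 CPM in Control. Every library of 3A lay above every Control library, the difference was 5.06-fold (log2 fold change 2.34, SE 0.34, edgeR's adjusted p = 0.00595), and the adjusted p was between 0.000682 and 0.0388 when each library was left out in turn. It was nonetheless the scarcest angiomotin, with 1.80 ± 0.353% of the family's level (TPM) in 3A and 0.327 ± 0.135% in Control (SD, n = 3 each). Amotl1 had 193, 268 and 264 CPM in 3A, against 248, 183 and 252 CPM in Control, with overlap. Amotl2, also a YAP target, had 128, 86.7 and 83.8 CPM in 3A, against 121, 143 and 142 CPM in Control. The libraries 3A 2 and 3A 3 were below all Controls for Amotl2 and 3A 1 was not, and the log2 fold change was -0.44 (SE 0.20, edgeR's adjusted p = 0.169).

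**Figure D2:**
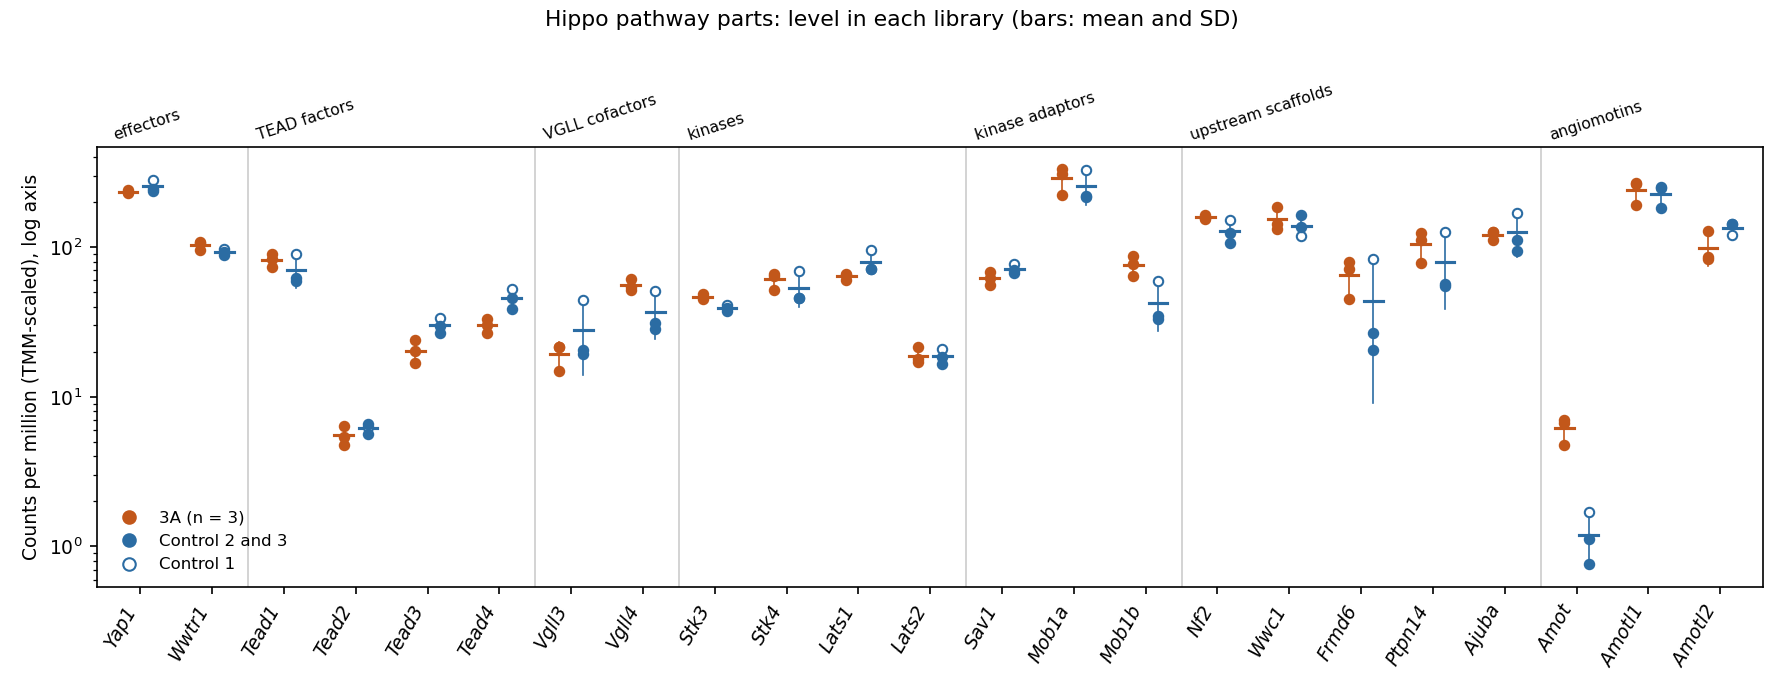
Level of the 23 Hippo pathway genes (CPM, log axis) in each library of 3A (left of each pair) and Control (right), grouped by role, with horizontal bars at the mean and vertical bars for 1 SD (n = 3 each). Control 1 is drawn open: it sits with 3A rather than with Control 2 and 3 for Frmd6 and Ptpn14, and only Amot is separated by a gap of more than 2-fold.

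The 15 target genes differed in both directions. By edgeR's quasi-likelihood test 2 rose and 4 fell in 3A, which is 40.0% of the targets against 14.9% of all tested genes. Their median log2 fold change was 0.20 and the median size without regard to sign 0.55, against -0.02 and 0.43 for all tested genes. At an unadjusted p under 0.05, 8 targets passed (53.3%, against 34% of all tested genes). The groups did not overlap for 3 targets higher and 5 lower in 3A (53.3%, against 36.1% of all tested genes, 18.6% higher and 17.6% lower). The called targets did not move one way. The members were chosen with earlier results of these data known, so these shares cannot test whether targets differ more than other genes.

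Of the CCN family, whose secreted matrix proteins are the most used readouts of YAP and TAZ, Ccn2 rose and Ccn1 was not called. Ccn2 (chromosome 10, 24595442 to 24598683, plus strand), which encodes connective tissue growth factor, had 51.8, 29.8 and 48.3 CPM in 3A, against 21.9, 26.2 and 22.3 CPM in Control. The groups did not overlap, with 3A 2 the library of 3A nearest to Control, and the difference was 1.84-fold (log2 fold change 0.88, SE 0.23, edgeR's adjusted p = 0.0446). It still passed without Control 1 or 3A 2 (edgeR's adjusted p = 0.0201 and 0.0311). It did not pass without 3A 1, 3A 3, Control 2 or Control 3 (log2 fold changes 0.74, 0.81, 0.96 and 0.85, edgeR's adjusted p = 0.101, 0.162, 0.109 and 0.131) or by limma-voom (adjusted p = 0.0552). Of its 2861 exon bases, 665 are shared with Gm15270 on the other strand. Ccn1 (chromosome 3, 145646976 to 145649981, minus strand), which encodes the matrix protein CYR61, had 141, 99.1 and 109 CPM in 3A, against 102, 147 and 138 CPM in Control. Its groups overlapped, and the log2 fold change, -0.15, had a 95% confidence interval of -0.63 to 0.34 (edgeR's adjusted p = 0.628). Per exon length Ccn1 was the more abundant of the pair, at 176 ± 25.9 TPM for Ccn1 and 46.0 ± 11 TPM for Ccn2 in 3A, and 160 ± 6.72 TPM for Ccn1 and 20.9 ± 3.80 TPM for Ccn2 in Control (SD, n = 3 each).

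Ankrd1 encodes an ankyrin-repeat protein that responds strongly to YAP and to mechanical load. It (chromosome 19, 36111961 to 36120099, minus strand) had 10.1, 3.6 and 4.15 CPM in 3A, against 0.539, 1.74 and 2.38 CPM in Control. Every library of 3A was above every Control library, but 3A 1 was more than 2-fold above the other two. The log2 fold change of 1.95 (SE 0.61) did not pass (edgeR's adjusted p = 0.0726), whereas DESeq2 (adjusted p = 0.00705), a fit with no low-count filter (edgeR's adjusted p = 0.0232) and a fit without Control 1 (log2 fold change 1.54, edgeR's adjusted p = 0.0276) called it higher.

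F3 fell. This gene (chromosome 3, 121723537 to 121735048, plus strand) encodes tissue factor, the cell-surface starter of blood clotting. F3 had 19.9, 19.6 and 22.3 CPM in 3A, against 73.4, 101 and 95.8 CPM in Control. The libraries of 3A lay close together and far below every Control library, a 4.38-fold difference (log2 fold change -2.13, SE 0.18, edgeR's adjusted p = 0.000757). The adjusted p stayed between 5.16e-05 and 0.00980 when each library was left out, with log2 fold changes from -2.25 to -2.05.

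Lhfpl2 and Rbms3 differed strongly at low levels. Lhfpl2 (chromosome 13, 94057796 to 94195409, plus strand), which encodes a tetraspan membrane protein, had 3.04, 2.37 and 3.95 CPM in 3A, against 0.729, 0.786 and 0.340 CPM in Control. It rose (log2 fold change 2.31, SE 0.39, edgeR's adjusted p = 0.00948), without overlap, and missed the threshold without 3A 3 (log2 fold change 2.12, edgeR's adjusted p = 0.0556). Rbms3 (chromosome 9, 116572746 to 117629913, minus strand), which encodes a single-stranded RNA-binding protein, had 5, 4 and 4 read counts in 3A, against 22, 45 and 49 in Control. It fell to 0.120 ± 0.0199 CPM in 3A, against 1.44 ± 0.697 CPM in Control (SD, n = 3 each), with a log2 fold change of -3.53 (SE 0.52, edgeR's adjusted p = 0.00587), and passed whichever library was left out (highest adjusted p = 0.0444). At these counts the size of the Rbms3 difference is imprecise, with a 95% confidence interval from -4.75 to -2.31 on the log2 scale. Rbms3 passed the low-count filter only through Control, the group where it was high, so its call is a description only.

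Gadd45b and Crim1 fell with adjusted p just under the threshold. Gadd45b (chromosome 10, 80930073 to 80932204, plus strand), a stress-induced growth arrest gene, had 92.8, 52.8 and 50.6 CPM in 3A, against 94.4, 205 and 265 CPM in Control. Control 1 was just above 3A 1, while Control 2 and 3, with the high mitochondrial share, were far above. The log2 fold change was -1.52 (SE 0.41, edgeR's adjusted p = 0.0487), and -1.84 without Control 1 (edgeR's adjusted p = 0.00161). It did not pass without 3A 1, 3A 2, 3A 3, Control 2 or Control 3 (edgeR's adjusted p = 0.0574, 0.183, 0.186, 0.135 and 0.135), nor by limma-voom (adjusted p = 0.0559) or with a filter of at least 1 CPM in 3 libraries (edgeR's adjusted p = 0.0517). Crim1 (chromosome 17, 78200248 to 78376592, plus strand), which encodes a membrane protein that binds BMP ligands, had 20.1, 20.8 and 23.9 CPM in 3A, against 36.3, 32.0 and 29.6 CPM in Control. The groups did not overlap, with a log2 fold change of -0.59 (SE 0.15, edgeR's adjusted p = 0.0437). It passed without Control 1 (edgeR's adjusted p = 0.0192) and not without 3A 1, 3A 2, 3A 3, Control 2 or Control 3 (edgeR's adjusted p = 0.103, 0.206, 0.112, 0.138 and 0.0839). Scaling by library size alone or leaving out the low-count filter also ended this call (edgeR's adjusted p = 0.106 and 0.105).

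**Figure D3:**
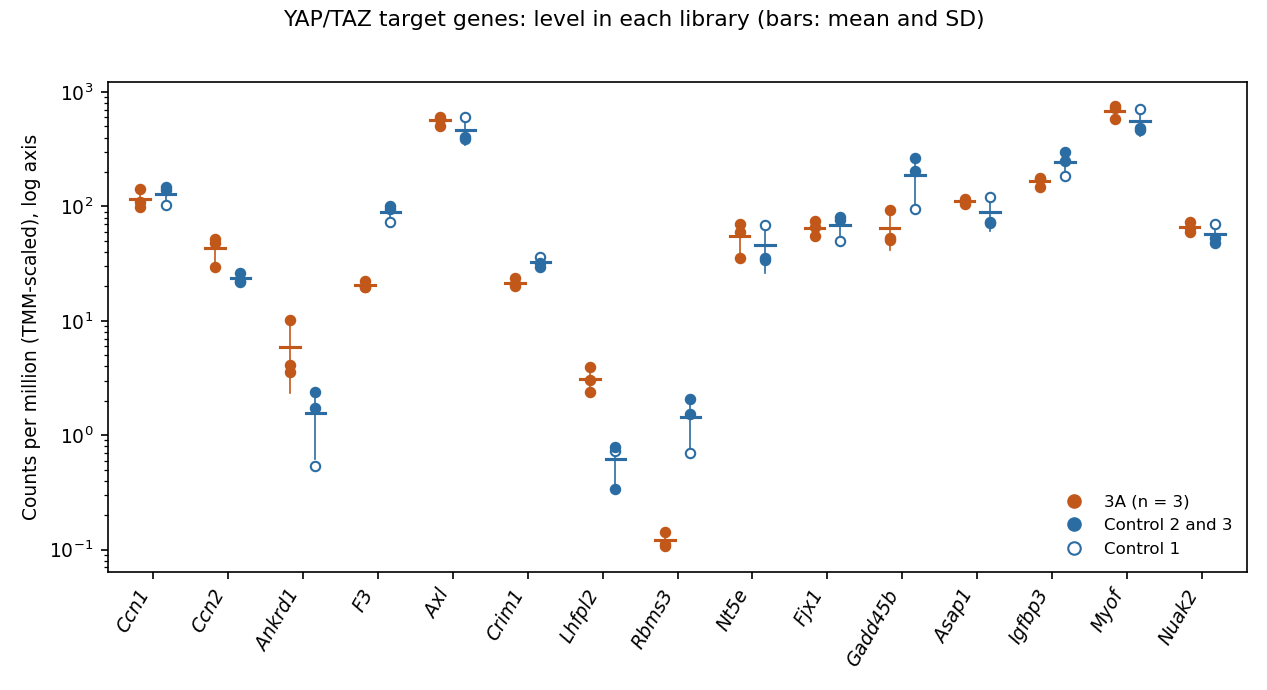
Level of the 15 YAP/TAZ target genes (CPM, log axis) in each library of 3A (left of each pair) and Control (right), with horizontal bars at the mean and vertical bars for 1 SD (n = 3 each). F3 and Rbms3 lie lower in 3A and Lhfpl2 lies higher, without overlap, whereas for Axl, Myof, Nt5e and Asap1 the open point of Control 1 falls within or above the range of 3A.

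The other 7 targets were not called. Igfbp3, which encodes a secreted binding protein of insulin-like growth factors, had 147, 179 and 173 CPM in 3A, against 184, 252 and 298 CPM in Control. Its groups did not overlap, and the log2 fold change was -0.55 (edgeR's adjusted p = 0.109) with 6 libraries and -0.71 (edgeR's adjusted p = 0.00542) without Control 1. Axl, which encodes a receptor kinase, had 508, 576 and 611 CPM in 3A, against 607, 401 and 392 CPM in Control. Myof, which encodes a membrane repair protein, had 578, 755 and 722 CPM in 3A, against 714, 464 and 482 CPM in Control. Asap1, which encodes an ARF GTPase activator at adhesions, had 112, 117 and 105 CPM in 3A, against 121, 72.1 and 73.2 CPM in Control. In these 3 genes Control 1 lay inside or above the range of 3A and Control 2 and 3 lay below it. Their log2 fold changes were 0.27, 0.31 and 0.32 with 6 libraries (edgeR's adjusted p = 0.381, 0.346 and 0.338) and 0.52, 0.54 and 0.63 without Control 1 (edgeR's adjusted p = 0.0133, 0.0183 and 0.00546). Nuak2, which encodes an AMPK-related kinase, had 59.5 to 72.4 CPM in 3A and 48.2 to 70.3 CPM in Control, and passed without Control 1 (log2 fold change 0.39, edgeR's adjusted p = 0.0485). Nt5e, which encodes the ectoenzyme CD73, had 35.4 to 70.2 CPM in 3A and 34 to 69.4 CPM in Control. Fjx1, which encodes a Golgi-linked secreted protein related to fly four-jointed, had 55.2 to 73.9 CPM in 3A and 50.0 to 80.9 CPM in Control. Neither Nt5e nor Fjx1 passed with or without Control 1.

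The counts of called genes depended on Control 1. Its level was nearer to the mean of 3A than to that of Control 2 and 3 (log2 scale, pseudocount 0.5 CPM) for 21 of the 38 genes (55.3%), compared with 61.0% of all tested genes. Among the pathway parts Control 1 was above both other Controls for 19 of 23 genes (82.6%, against 46.8% of all tested genes) and the highest of the 6 libraries for 10 (43.5%, against 21.6%). Without it 8 pathway parts were higher and 1 lower in 3A, and 7 targets were higher and 5 lower, in a fit that called 52.0% of 14300 genes. The 21 members called were 55.3% of the 38, with 39.1% of the pathway parts and 80.0% of the targets. These shares are a description, since the members were chosen with earlier results of these data known. Without any other library the calls were Amot, F3 and Rbms3, joined by Lhfpl2 except without 3A 3, and by Ccn2 without 3A 2. Amot, F3 and Rbms3 were thus called in each of the 6 fits that left out 1 library. Rbms3, unlike Amot and F3, had entered the 6-library test only through its level in Control.

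**Figure D4:**
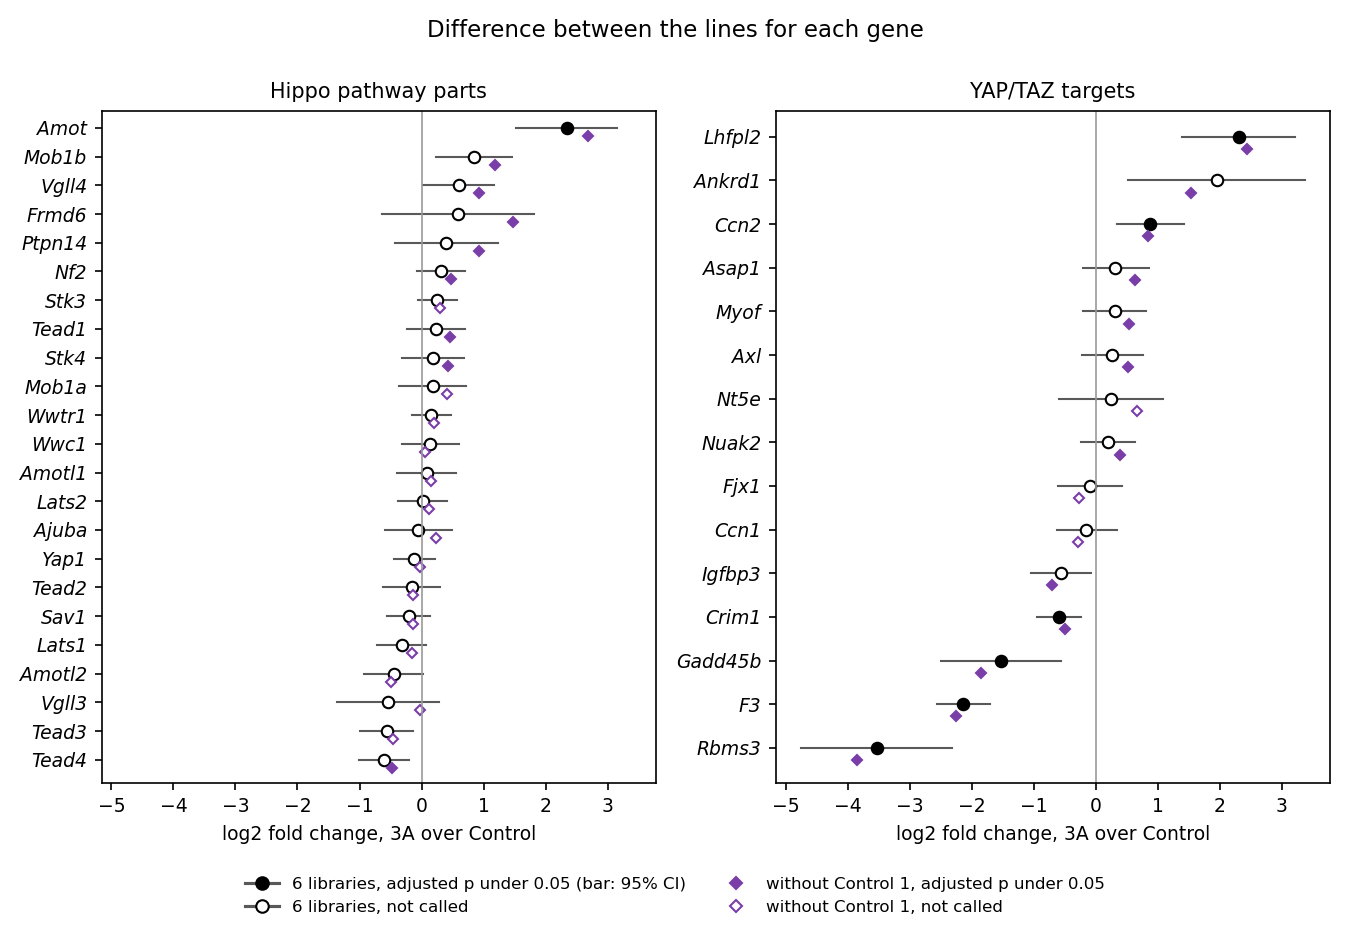
Log2 fold change of 3A over Control for each pathway part (left) and target (right), with 95% confidence intervals from the fit of 6 libraries (circles) and the value without Control 1 (diamonds), filled where the adjusted p was under 0.05. Filled circles are 1 of 23 for the pathway parts and 6 of 15 for the targets, and filled diamonds are 9 of 23 and 12 of 15. Over all tested genes the called share was 14.9% with 6 libraries and 52.0% without Control 1.

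Further genes of the pathway were read from lists of other upstream regulators and of other reported targets. Of 46 other upstream regulators 41 were tested, and 2 were higher and 0 lower in 3A (4.88% called, against 14.9% of all tested genes), with a median log2 fold change of -0.03. At an unadjusted p under 0.05 edgeR passed 9 (22%, against 34% of all tested genes). Without Control 1 14 passed as higher and 6 as lower (48.8%, against 52.0% of the 14300 genes in that fit). Leaving out any other library gave 2 higher and 0 lower. The 2 were Vgll1, another TEAD-binding cofactor, and Tnik, a MAP4K family kinase. Vgll1 had 1.83, 1.68 and 1.64 CPM in 3A, against 0.254, 0.0342 and 0.0849 CPM in Control (log2 fold change 3.70, SE 0.55, edgeR's adjusted p = 0.00616). Tnik had 0.774, 1.15 and 1.28 CPM in 3A, against 0.159, 0.0684 and 0.170 CPM in Control (log2 fold change 2.99, SE 0.44, edgeR's adjusted p = 0.00610). Both had at most 0.254 CPM in any Control library. They passed the low-count filter only through 3A, the group where they were high. The count of 2 higher and 0 lower is therefore a description only.

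Of 30 other reported targets 25 were tested, and 5 rose and 4 fell (36% called, against 14.9% of all tested genes), with a median log2 fold change of 0.10. This list, too, was chosen with earlier results of these data known, so its share is a description only. Areg, an EGF receptor ligand gene through which YAP acts on growth, had 25.8, 23.1 and 25.9 CPM in 3A, against 3.96, 4.75 and 5.14 CPM in Control. Ccnd1, which encodes cyclin D1, had 713, 772 and 682 CPM in 3A, against 427, 244 and 231 CPM in Control. Neither overlapped between the groups. Thbs1, which encodes thrombospondin 1, had 495 ± 103 CPM in 3A and 270 ± 26.3 CPM in Control (SD, n = 3 each; edgeR's adjusted p = 0.0286). Birc5, which encodes survivin and was named after its value was seen, also rose (log2 fold change 0.55). The 4 that fell were Tgm2, which encodes a transglutaminase (log2 fold change -2.43, SE 0.19), Gas6, which encodes the ligand of the AXL receptor (-1.95, SE 0.35), Tgfb2 (-1.40, SE 0.34) and the RhoGAP gene Dlc1 (-0.99, SE 0.18). Tgm2 had 8.97, 10.6 and 8.83 CPM in 3A, against 61.7, 45.2 and 46.0 CPM in Control. Tgfb2 had 0.229, 0.4 and 0.334 CPM in 3A, against 0.761, 0.923 and 0.892 CPM in Control. It passed the low-count filter only through Control, where it was high. Without Control 1 9 passed as higher and 8 as lower (68.0%, against 52.0% of the 14300 genes in that fit). Leaving out any other library gave 2 to 3 higher and 1 to 3 lower. Ccnd1, Birc5 and Tgfb2 passed only without Control 1 among the 6 fits that left out a library, with edgeR's adjusted p up to 0.0935 for Ccnd1, 0.167 for Birc5 and 0.147 for Tgfb2. Thbs1 passed only without Control 1 or 3A 1 (edgeR's adjusted p up to 0.137), and Gas6 and Dlc1 did not pass without 3A 2 or 3A 3 (up to 0.0799 for Gas6 and 0.0788 for Dlc1). Areg and Tgm2 passed in all 6 of these fits.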

How the data were processed

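The authors deposited raw read counts per mouse gene for 3 libraries of 3A and 3 of Control. The labels and the submitters' processing notes name Trim Galore, featureCounts, edgeR and limma, without saying what each was used for. The builds they name are mm10, GRCh38 and hg38. The sources used here name no aligner, annotation release or strand setting. Of 49315 gene IDs, 49056 matched GENCODE M21 and 259 did not. The counts were tested with edgeR 4.0.16 (TMM scaling, filterByExpr, quasi-likelihood test, Benjamini-Hochberg adjustment over 13704 genes, threshold 0.05) in R 4.3.3, after a check on simulated data. Alternatives were DESeq2 1.42.0, limma-voom (limma 3.58.1), other scalings and filters, a replicate block and leaving out each library. CPM values use TMM library sizes and TPM values use union exon length. No pair of replicates agreed within sampling noise. All members are named, and from the other lists at most the 4 called genes with the smallest p in each direction, of which 1 is not reported here. The members and lists were chosen with earlier results of these data known.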

Additional observations from a re-analysis of the deposited data

How the results depend on the processing

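Over all tested genes 1031 were higher and 1013 lower in 3A. DESeq2 gave 1525 higher and 1765 lower. Leaving out 1 library gave 346 to 3751 higher and 318 to 3690 lower, with the highest counts without Control 1. For the pathway parts (1 higher, 0 lower) DESeq2 gave 2 higher and 1 lower, and leaving out 1 library gave 1 to 8 higher and 0 to 1 lower. For the targets (2 higher, 4 lower) limma-voom gave 1 higher and 3 lower (without Ccn2 and Gadd45b), a filter of at least 1 CPM in 3 libraries gave 2 lower since Rbms3 was then not testable and Gadd45b did not pass, and leaving out 1 library gave 0 to 7 higher and 2 to 5 lower. Replicate numbers did not pair the samples (same-numbered libraries correlated at -0.66, -0.419 and -0.375 in their deviations). With the replicate block 142 genes were higher and 146 lower, with 0 pathway parts higher, 0 targets higher and 1 target lower (F3). Signs turned round for uncalled genes only. The log2 fold change of Lats2 was -0.08 without 3A 1 and -0.07 without Control 2 (range over left-out libraries -0.08 to 0.12), that of Wwc1 -0.01 without 3A 1 (-0.01 to 0.28), and that of Ajuba 0.02 without 3A 3 and 0.24 without Control 1 (-0.22 to 0.24). That of Amotl1 was -0.06 without Control 2 (-0.06 to 0.23), and that of Fjx1 0.02 without 3A 3 and 0.04 without Control 3 (-0.27 to 0.04). With the longest transcript as length, shares in 3A and Control were 66.9% and 70.9% for Yap1, 44.9% and 45.7% for Stk4, 71.0% and 75.4% for Lats1, and 88.4% and 92.5% for Mob1a. The cause of these changes was not tested.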
